A study of Drosophila melanogaster with 2 samples.

Results

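Sens-2 ChIP-seq summits that lay in introns of genes shorter than 50 kb made up 713 of the 2883 summits on the conservative peak list of this series, or 24.7% (exact 95% binomial interval 23.2% to 26.3%). A summit is the base at which the authors placed the top of a peak. A summit was counted here when it lay more than 500 bp from every annotated transcript start, outside all annotated exons and inside at least 1 protein-coding gene, and when the longest gene around it spanned less than 50 kb. The 713 summits fell in 502 such longest host genes. Of the other summits, 319 lay in introns of genes of 50 kb or more under the same distance and exon limits, 1290 within 500 bp of a start, 463 outside protein-coding genes and 98 in exons away from starts.

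The series holds 1 group of samples, 2 biological replicates of whole Drosophila melanogaster embryos collected over 0 to 24 h. The strain, sens-2-GFP, expresses Sens-2 fused to eGFP from an insertion, and the fusion protein was precipitated with an antibody to GFP after sonication to fragments of 200 to 800 bp. No mock, input or untagged sample was analysed here, so every value below comes from precipitated chromatin of the tagged strain. The embryos span all of embryogenesis and all tissues, so strong occupancy in few cells cannot be told apart from weak occupancy in many. The thresholded list of replicate 1 held 1990 peaks and that of replicate 2 held 1643 peaks, while their ranked lists held 118653 and 94514. Read depth is not known from these files, and intervals and p-values over summits cover counting error and the spread between peaks only.

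Sens-2 is the paralog of Senseless, a zinc-finger transcription factor of the Gfi1 family that drives the development of sensory organ precursors in the fly. Senseless and its mammalian relatives bind DNA at sites built around the core AAATCA. Introns, above all the first, carry many of the enhancers of fly developmental genes, so that a transcription factor peak within a gene can lie in an element of that gene or of a neighbour.

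The strongest of these summits show what such sequence looks like. The summit with 50 bp on each side is given for the 5 strongest members on 2L, 3L, 3R and X and for the 3 strongest there that hold the core, 6 windows in all because 2 summits are in both sets. The letters are the plus strand of Release 6 (dm6), 5′ to 3′, and capitals mark AAATCA or its reverse complement TGATTT.
CG11050, chr2L:6612662-6612762: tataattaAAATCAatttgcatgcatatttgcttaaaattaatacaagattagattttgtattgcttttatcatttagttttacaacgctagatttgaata
CG32772, chrX:4910320-4910420: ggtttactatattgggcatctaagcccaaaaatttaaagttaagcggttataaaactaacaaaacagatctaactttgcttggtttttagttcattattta
sens-2, chr2L:6833820-6833920: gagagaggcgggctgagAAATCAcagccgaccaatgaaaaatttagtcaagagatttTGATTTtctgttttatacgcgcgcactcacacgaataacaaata
chif, chr2L:16351171-16351271: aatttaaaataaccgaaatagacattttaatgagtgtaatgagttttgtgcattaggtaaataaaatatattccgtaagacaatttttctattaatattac
Trl, chr3L:14759441-14759541: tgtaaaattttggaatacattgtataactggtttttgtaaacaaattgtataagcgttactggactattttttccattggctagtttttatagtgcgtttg
ImpL2, chr3L:4228319-4228419: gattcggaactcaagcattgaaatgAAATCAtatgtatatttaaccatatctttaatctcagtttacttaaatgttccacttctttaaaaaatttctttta
G and C made up 20.8% of the CG11050 window and 21.8% of the chif window. They made up 40.6% of the sens-2 window, the highest share of the 6, and that window is the one that holds the core in 2 places.

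The signal, the authors' own value per peak on the scale of the list, ran from 2.19 to 812 over the 713 members, with a median of 79.1 and quartiles of 61.7 and 112. The strongest member lay in intron 2 of 4 of CG11050, 1701 bp into the gene, with a signal of 812. Its peak (chr2L:6612591-6612882) had a signal of 471 in the ranked list of replicate 1 and 329 in that of replicate 2, each on its own scale. CG32772 followed at 593, again in intron 2, with 332 in replicate 1 and 245 in replicate 2. The third strongest lay in sens-2 itself, the gene that was tagged, in its last intron at 466, with 235 in replicate 1 and 226 in replicate 2. Extra copies of sens-2 sequence carried by the tagged strain cannot be told apart from occupancy there.

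Several of the next genes encode proteins of chromatin and transcription. Adf1, a transcription factor first described at the Adh gene, held a summit at 426 in intron 2 of 3 on 2R. Its replicate signals were 303 and 131 in replicates 1 and 2. The summit in the first intron of chif, the fly relative of the replication kinase subunit Dbf4, stood at 424 and is also inside Hyls1, with replicate signals of 248 and 188. HmgD, a chromosomal HMG-box protein, shared its summit of 408 with the neighbouring HmgZ, whose gene overlaps it. Trl, which encodes the GAGA factor, had 397 in a 5′ UTR intron, with 267 in replicate 1 and 119.5 in replicate 2. Hr3, a nuclear receptor of the ecdysone response, had 367 in its first intron, 17291 bp into the gene, where CG12912 and CG46321 overlap it. In all, 38 members lay inside more than 1 protein-coding gene. Each of the 8 summits named so far was also on the thresholded list of both replicates.

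The remaining 7 of the 15 strongest members had signals from 337 to 384. They included the kinase gene Raf of the MAP kinase cascade at 353, the lysophospholipid acyltransferase gene LPCAT at 349, and ImpL2, which encodes a secreted insulin-binding protein, at 344. norpA, the phospholipase C of phototransduction, had 337, and CG12769, CG3726 and CG32486 had 384, 383 and 340.0. Members made up 1 of the 10 strongest summits of the list (10%), 7 of the 50 strongest (14%) and 21 of the 100 strongest (21%). They made up 238 of the 1000 strongest (23.8%), beside 24.7% of all summits.

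At the other end, 14 members had a signal under 20. Each of them overlapped a stronger peak of the same list whose summit was 199 to 241 bp away and whose signal was 32.7 to 113. In all, 17 members (2.38%) and 62 other summits (2.86%) overlapped a stronger peak of the list. The lowest signal among the members that overlapped none was 27.9.

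**Figure D1:**
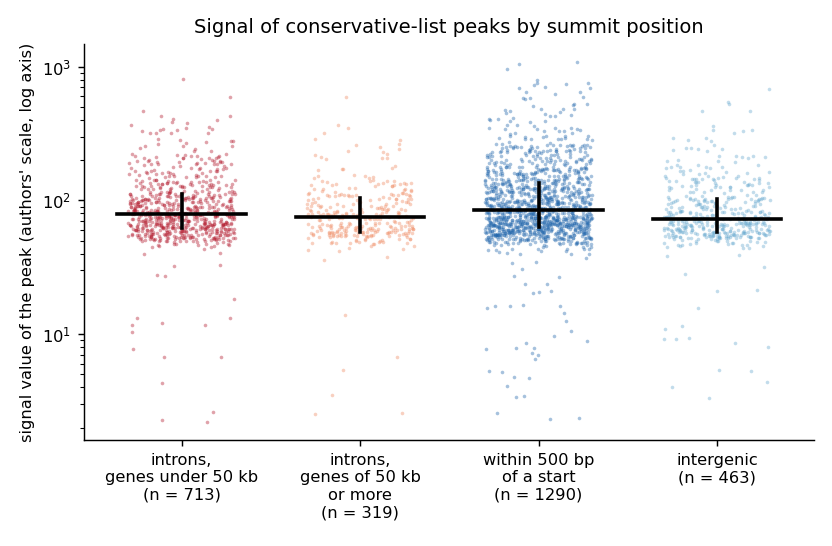
Signal value of each peak of the conservative list (log axis, authors' scale) by the position of its summit, with 713 summits in introns of genes under 50 kb at the left. Points are peaks, the horizontal bar is the median and the vertical bar spans the quartiles. The medians are 79.1 in introns of genes under 50 kb, 74.5 in introns of longer genes, 84.1 near starts and 72.4 between genes, and the 4 clouds overlap over nearly their whole range.

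Medians of signal differed little beside the spread within each group. Of the members, 50.4% had a signal above the median of the list, which 50% of all summits exceed by construction. The share was 45.8% in introns of longer genes, 54.7% near starts and 41.9% between genes. Only the difference of 8.45 percentage points from intergenic summits passed two-sided Fisher's exact tests adjusted over 12 class comparisons (adjusted p = 0.0297), against adjusted p = 0.238 for longer genes and 0.106 for starts. On the other thresholded list across both replicates this difference was 9.76 points (exact test, adjusted p = 0.00668). It was not called on the list of either replicate alone. Those lists have other summits and their own medians, and the adjustment there covered fewer than 12 comparisons. Why the call was lost was not tested. On the list of replicate 2 alone, without replicate 1, the difference from intergenic summits was -0.380 points (exact test, adjusted p = 0.933), and on the list of replicate 1 alone, without replicate 2, it was 3.16 points (adjusted p = 0.942). Without replicate 2 the difference from starts was -10.7 points (exact test, adjusted p = 0.00124).

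Summits were denser in these introns than elsewhere away from starts. The members lay in 24.7 Mb of sequence that could have held one, which gives 28.9 summits per Mb (exact 95% Poisson interval 26.8 to 31.1). Introns of genes of 50 kb or more held 13.7 per Mb over 23.3 Mb, and intergenic sequence held 13.3 per Mb over 34.8 Mb. Every base that met the position rule was counted, repeats included, whether or not reads can be placed there. Chromosome Y gave 2.31 Mb of the intergenic sequence, 0.879 Mb of the longer-gene introns and 0.0557 Mb of the shorter-gene introns, with no summit in any. The part of such sequence in the densities was not tested. The density in the shorter genes was 2.11 times that in the longer genes (95% interval 1.85 to 2.42) and 2.17 times that between genes (1.93 to 2.45). Both differences passed two-sided exact binomial tests adjusted over 7 density comparisons (adjusted p = 5.19e-30 and 7.58e-39). These comparisons were chosen after the densities had been seen, and they count summits of 1 gene as independent, which neighbouring summits are not. With only 1 summit counted in each of the 502 hosts and all summits counted elsewhere, the shorter genes still held 20.3 per Mb.

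The order of the densities was the same at each distance from a start. More than 500 and up to 1000 bp from the nearest start, the density was 52.7 summits per Mb in introns of shorter genes, 30.0 in introns of longer genes and 24.5 between genes. More than 10000 and up to 50000 bp away it was 15.1 per Mb in shorter genes, 7.29 in longer genes and 6.66 between genes. In the shorter genes it fell at each step outward, through 32.8, 24.4 and 21.3 summits per Mb in the 3 bins between.

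**Figure D2:**
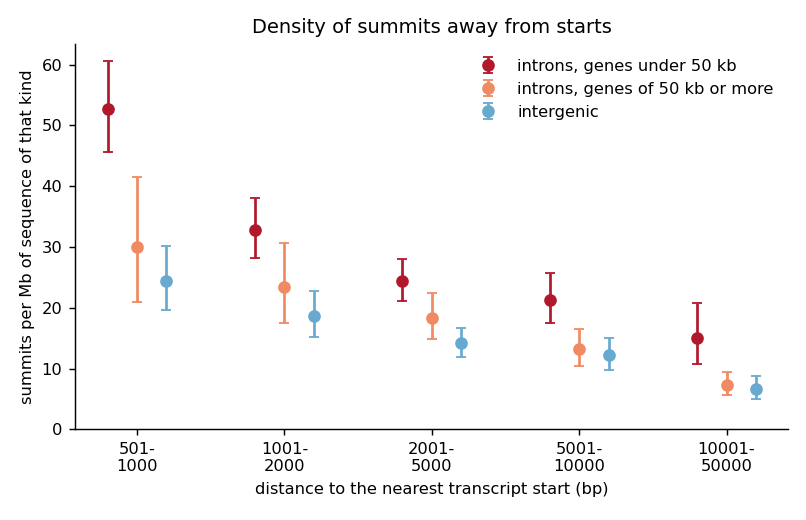
Summits per Mb of sequence of each kind (vertical axis, from 0) by distance of that sequence from the nearest transcript start (horizontal axis, bp), for introns of genes under 50 kb, introns of genes of 50 kb or more and intergenic sequence. Points are densities and bars are exact 95% Poisson intervals. Introns of the shorter genes are highest in all 5 bins, at 52.7 per Mb in the nearest and 15.1 per Mb in the farthest.

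The X chromosome held 161 members, or 38.1 per Mb, against 26.03 to 29.3 per Mb on the 4 large autosomal arms. The ratio of X to the arms together was 1.39 (95% interval 1.16 to 1.66, exact binomial test, adjusted p = 0.000834). With 1 summit per host it was 1.31 (1.05 to 1.62, exact test, adjusted p = 0.0218). In introns of longer genes the same ratio was, by exact tests, 1.24 (0.947 to 1.60, adjusted p = 0.112), at starts 0.868 (0.740 to 1.01, adjusted p = 0.0858) and between genes 0.624 (0.453 to 0.843, adjusted p = 0.00234). Differences between these ratios were not tested. The number of X copies in the pooled embryos and the read depth over X were not analysed here, and their part in the ratio was not tested. Chromosomes 4 and Y held no member, in 0.245 Mb and 0.0557 Mb of such sequence, where a count of 0 allows up to 15.03 and 66.2 per Mb (upper exact 95% Poisson limits).

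Most members lay in a first intron. Numbered on the Ensembl canonical transcript where it spans the summit and on the longest such transcript otherwise, 454 members were in intron 1 (63.7%, exact 95% interval 60.0% to 67.2%). On canonical transcripts alone, intron 1 held 44.2% of the intron sequence of the same host genes that could have held a member. Among the 613 members numbered on a canonical transcript the share was 61.8%. Intron 2 held 166 members, 23.3% of them against 26.7% of that sequence, and introns 5 and later held 34 members, 4.77% against 13.03% of the sequence. These shares of members include the 100 numbered on another transcript, which the shares of sequence do not cover. This difference in share was not tested, since several members share a host. Density was higher near starts, and the part of that in the share was not tested.

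By place in the transcript, 411 members (57.6%) lay between coding exons, 298 (41.8%) in introns of the 5′ UTR and 4 in introns of the 3′ UTR. The median member lay 5098 bp from the start of its gene, 32.3% of the way along it, in an intron of 8252 bp. The nearest start of any transcript was a median of 1873 bp away and at most 26410 bp away. It belonged to a gene other than a host for 182 members, so the host names the place of a summit and not its target. The median signal was 81.8 in first introns against 75.9 in later ones, and it ran from 76.8 to 83.5 over the 5 bins of distance from a start.

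At the limits of the rule, the nearest members inside the distance limit were in Pkn (504 bp, signal 54.7), CG4496 (506 bp, 213) and M7BP (506 bp, 52.2). Just outside were summits in ph-p (500 bp, 745), CG31523 (499 bp, 136) and CG5854 (494 bp, 87.5). The longest host was NetA with 49917 bp, and the nearest genes past the limit were caps with 50951 bp and cic with 51173 bp.

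Among the 502 hosts, 360 held 1 member, 95 held 2, 35 held 3 and 12 held more. These counts include the 17 members that overlap a stronger peak of the list. The 142 hosts with 2 or more held 353 of the members.

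Raf held the most, 7, all in its long second intron, which belongs to the 5′ UTR. Their signals were 80.8, 334, 198, 353, 124, 90.8 and 75.1 in order from the start of the gene. Thus 6 of them lay 1113 to 8615 bp from the start, and the last stood alone at 34043 bp. The 2 strongest had replicate signals of 221 and 219.7 in replicate 1 and of 113 and 129.9 in replicate 2, and no Raf promoter summit was on the list.

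sens-2 held 6. The 4 in its first intron had signals of 60.8, 77.6, 90.6 and 65.3, and the 2 in intron 4 had 466 and 52.2. The 5 weaker ones had 27.9 to 35.8 in replicate 1 and 23.7 to 50.4 in replicate 2, so that 1 summit of the gene stood well above the rest in both libraries. AAATCA was in the windows of 3 of the 6, and the promoter of the gene held a summit of 305.

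CHES-1-like, a forkhead-family gene, held 6 with signals from 52.3 to 247, each in the first intron, 4 of the canonical transcript and 2 of another transcript, spread from 2377 to 18622 bp into the gene. S, which encodes Star, a membrane protein needed to export the EGF receptor ligand Spitz, held 5 in its first intron, with signals of 208, 76.3, 158, 59.7 and 68.8 in order along the gene. apt, a transcription factor gene, held 3 in the first and 2 in the second intron of a transcript other than the canonical one, from 78.6 to 189.7. NetA, which encodes an axon guidance netrin, held 5 as well, from 52.03 to 122, from 18940 to 41433 bp into the gene. Strong and weak summits thus lay within the same introns, and not all of them were on the thresholded lists of both replicates, 4 of 7 in Raf, 3 of 6 in sens-2 and 1 of 5 in NetA.

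**Figure D3:**
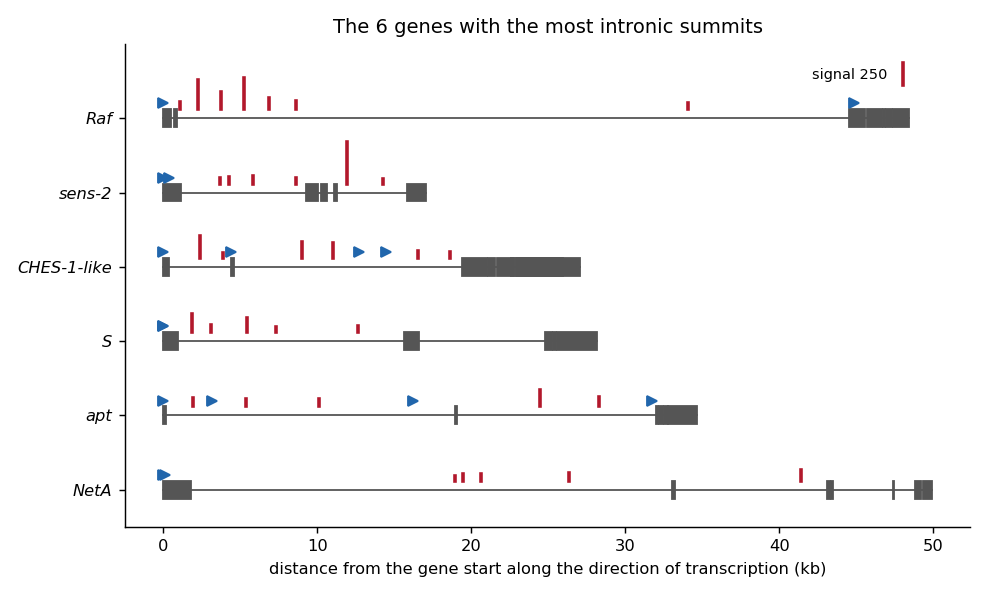
Maps of the 6 genes with the most members, drawn from the gene start along the direction of transcription (horizontal axis, kb). Grey boxes are exons of the transcript or transcripts on which the introns of that gene's members were numbered, blue arrowheads are annotated starts of the gene, and each red bar is a member with its height in proportion to the signal (scale bar at the top right). Raf has 6 of its 7 summits in the first part of its second intron, and sens-2 has 1 tall bar of 466 among 6.

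The hosts were also described by the known roles of their genes. Of the 8588 protein-coding genes under 50 kb with some intron sequence that could hold a member, 534 (6.22%) held one. Genes that held a member were long beside the rest, with a median of 16589.5 bp against 3205 bp for those without, so counts of genes are given beside members per Mb of the eligible sequence, which was 28.9 over all genes. The lists were drawn up with earlier results of these data known and are described without a test.

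Of 111 listed genes for developmental transcription factors, 29 (26.1%) held a member, with 38.6 members per Mb. Besides sens-2 and Hr3 they included aop, the ETS-domain repressor also known as Yan, with 233, 71.4 and 58.9 in its second intron. Mad, the Smad that transduces BMP signals, had 209 in its first intron. grh, which controls epidermal barrier genes, had 199 in its first intron. The Hox genes abd-A and Abd-B had 55.7 and 53.7, below the median of the members.

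Of 83 genes of signalling pathways, 26 (31.3%) held a member, with 63.6 per Mb. The receptor gene N of the Notch pathway had 219.6 and 65.1, both in intron 5, 27657 and 28239 bp into the gene. Replicate signals at the stronger N summit were 124 and 92.4 in replicates 1 and 2. The adaptor gene drk had 195, the insulin receptor gene InR 178, the BMP ligand gene dpp 157, and the heparan sulfate proteoglycan gene dlp 141 and 104. ptc, the Hedgehog receptor gene, had 59.3 and 58.0.

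Of 55 neuronal genes, 9 (16.4%) held a member, with 26.9 per Mb from 18 members, close to the 28.9 over all genes. elav, which encodes a neuronal RNA-binding protein, had 119.6 in an intron that also lies inside arg, with 58.2 in replicate 1 and 57.2 in replicate 2. fra, the netrin receptor gene, had 118, 104 and 55.2 in its first intron, so that both a netrin and its receptor were among the hosts. Of 62 genes of adhesion, polarity and the cytoskeleton, 12 (19.4%) held one, with 42.7 per Mb. Moe, the fly ERM protein that ties actin to the membrane, had 209 and 55.1, mew, an integrin alpha subunit, had 4 summits from 72.0 to 141, and sn, the actin bundler fascin, had 126 and 62.7.

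Of 61 genes of chromatin and the transcription machinery, 7 (11.5%) held a member, and their 48.2 per Mb rest on only 7 summits. After Trl these were led by the remodeller gene Mi-2 at 180.4, inside Su(Tpl) as well, and the Polycomb group gene Psc at 173, and ph-p had 123. Of 44 genes for RNA-binding and germline proteins, 5 (11.4%) held one, and their 37.8 per Mb rest on only 5 summits. brat, a translational repressor, had 199, how, a STAR-family RNA-binding protein, had 97.0, and Sxl, the splicing regulator of sex determination, had 96.0.

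The hosts included short genes. Of 24 stress and cell death genes, 3 (12.5%) held 5 members in 0.0594 Mb. Hsp83, the fly Hsp90, had 198 in its single intron 1320 bp into the gene, with 112 in replicate 1 and 80.7 in replicate 2. Diap1, an inhibitor of caspases, had 131, 88.2 and 62.9, of which the first and the second overlap, and hid, its antagonist, had 53.7. Of 44 metabolic and housekeeping genes, 6 (13.6%) held 9 members in 0.0782 Mb. Cyt-c-p, a cytochrome c gene, had 222 and 53.5 in its single intron, bmm, a triglyceride lipase, had 104 and 56.3, and Gs2, a glutamine synthetase, had 103. With so little sequence in these lists, their 84.1 and 115.03 members per Mb rest on 5 and 9 summits.

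Many of the hosts also had a summit at their own promoter, within 500 bp of one of their starts. This was so for 143 of the 502 hosts (28.5%), while 10.4% of all 13655 protein-coding genes under 50 kb had a promoter summit. Only 8588 of the 13655 had intron sequence that could hold a member, and the share among those was not computed. Hosts are long beside other genes, as given above, and the part of length in this was not tested. The median signal was 80.0 in the 226 members whose host had a promoter summit and 79.0 in the 487 whose host had none. The share on both replicate lists was 42.9% with a promoter summit and 39.4% without.

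A peak of the thresholded list of replicate 1 overlapped 429 members (60.2%), and a peak of that of replicate 2 overlapped 363 (50.9%), counting an overlap of 1 bp or more. Both lists held 289 members (40.5%), beside 40.5% of all summits of the conservative list. Replicate 1 alone held 140, replicate 2 alone held 74, and neither list held 210 (29.5%). The conservative list draws on both replicates together, so a summit can be on it with a weak peak in each. Signal followed this order, with medians of 126 for members in both lists, 75.8 and 75.7 for those in the list of replicate 1 or 2 alone, and 57.0 for those in neither.

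The share in both lists was 34.2% in introns of longer genes, 45.3% near starts and 32.2% between genes. The 8.35 percentage points between members and intergenic summits passed the test (two-sided Fisher's exact test, adjusted p = 0.0297), while the differences of 6.36 points from longer genes and of -4.82 points from starts did not (adjusted p = 0.106 for each). With an overlap of at least 50% of both peaks, the difference from intergenic summits was 7.25 points and lost its call (exact test, adjusted p = 0.0569).

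All but 3 members had a peak in the ranked list of both replicates. Over these 710, the median signal was 47.4 in replicate 1 and 34.3 in replicate 2, and the median ratio of replicate 1 to replicate 2 was 1.38, with quartiles of 1.10 and 1.73. Over the other summits that ratio was 1.43. The signals of the replicates followed each other across members, with a Spearman rho of 0.633 and a Pearson r of 0.770 on the log2 scale. These points come from 1 pair of libraries and are not independent. In 125 members the signal was higher in replicate 2.

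**Figure D4:**
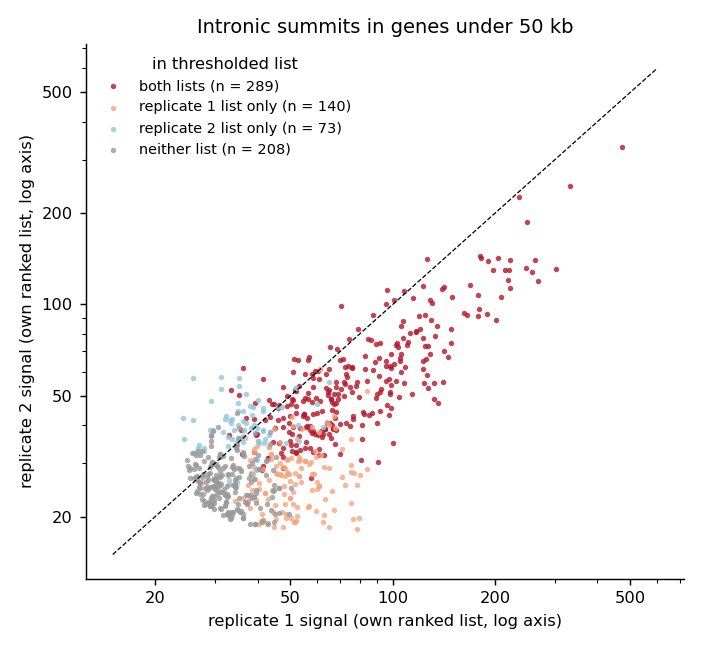
Signal of each member in the ranked list of replicate 1 (horizontal, log axis) and of replicate 2 (vertical, log axis), each on its own list's scale, for the 710 members with a peak in both. Colours give the thresholded lists that hold the member, and the dashed line marks equal values. Most points lie below the line, and the members in neither thresholded list sit at the low end of both axes.

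AAATCA, on either strand, lay within 50 bp of the summit in 150 members (21.0%), beside 17.9% of all summits of the list. In windows of the same length centred 300 bp away, alternating between the 2 sides, 77 members (10.8%) held it. Of the members with the core in 1 of the 2 windows, 135 had it at the summit and 62 at the flank (two-sided exact McNemar test, p = 2.13e-07). The difference of 10.2 percentage points kept its sign and its call in every alternative tried, with replicate 2's list alone (10.9 points, without replicate 1) and replicate 1's list alone (7.29 points, without replicate 2) among them. The median distance between summit and core was 19.5 bp, and 77 of the 150 had it within 20 bp. This distance was to the nearest core and was bounded by the 50 bp limit, so it is no measure of centring by itself. In successive windows of 51 bp, the share was 10.4% and 10.8% on the 2 sides of the summit and 3.93% to 6.73% from 75 bp outward to 475 bp.

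**Figure D5:**
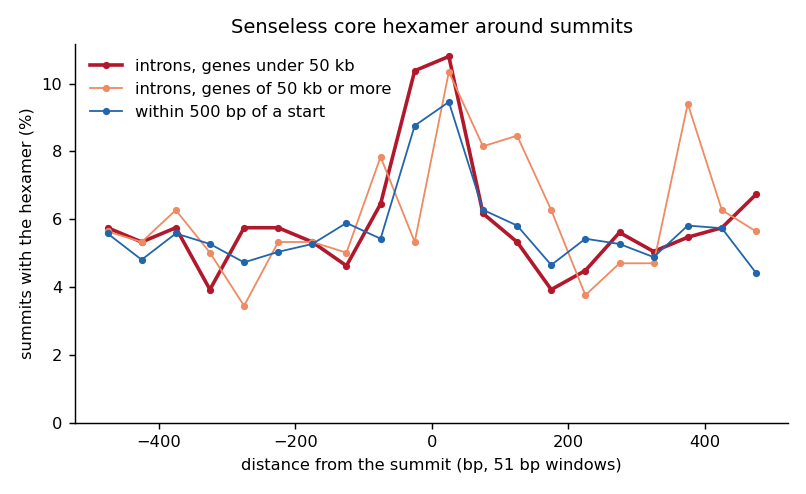
Share of summits with AAATCA or TGATTT (vertical axis, %, from 0) in windows of 51 bp by distance from the summit (horizontal axis, bp) for introns of genes under 50 kb, introns of longer genes and summits near starts. The members reach 10.4% and 10.8% in the 2 central windows, beside 3.93% to 6.73% in the other windows.

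The core was not shown to be more frequent in these introns than elsewhere. It was at the summit in 15.7% of the summits in introns of longer genes, 18.0% of those near starts and 16.0% of intergenic ones. The members were higher by 5.36, 3.05 and 5.06 percentage points, and none of these passed (two-sided Fisher's exact tests, adjusted p = 0.106, 0.145 and 0.106). Among summits with the core in 1 window only, the summit was that window for 68.5% of members, 69.1% of summits in longer genes, 64.7% near starts and 63.4% between genes (adjusted p of 1, 0.426 and 0.426). Members with the core had a median signal of 80.1 against 79.0 for those without, and CG32772, chif and Trl are strong members whose windows lack these letters.

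Base composition moved with the same contrast. G and C made up a median of 33.7% of the summit windows and 42.6% of the flanks. Over all summits of the list these medians were 35.6% and 43.6%, so the drop was not particular to the members. The hexamer counts below are for members only. Of all 2080 hexamers, each merged with its reverse complement, 111 (5.34%) were held by more summits than flanks and 99 (4.76%) by fewer (exact McNemar tests, adjusted over all hexamers). Of the 111, 29 had no G or C and 62 had 1, and 98 of the 99 had 3 or more. AAATCA was the ninth of the 111 by exact p (adjusted p = 4.41e-05), behind 7 hexamers of A and T alone, led by ATTTAA with 23.4% of summits and 10.2% of flanks, and AGCTTA with 6.87% and 1.40%. Among the 30 hexamers with the same base composition, AAATCA had the highest ratio of summits to flanks, 1.95, but AATCAA had 1.92 and the median of the other 29 was 1.46. The part of base composition in the AAATCA difference was not tested beyond these values.

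Of 14 further motifs, 5 were higher and 1 lower at summits (exact McNemar tests, adjusted over the 14). The longer Senseless core AAATCAC was at 4.35% of summits and 1.12% of flanks (exact test, adjusted p = 0.00134). GATAAG, the site of GATA factors, was at 10.9% and 5.19% (exact test, adjusted p = 0.00109), and TAATTA, bound by many homeodomain proteins, was at 8.56% and 5.33% (adjusted p = 0.0448). CATAAA and TACAAA, rearrangements of the letters of AAATCA searched as controls, were higher too, at 15.6% and 10.9% and at 14.2% and 9.12% (exact tests, adjusted p = 0.0292 and 0.0119). GAGAG, the site of the GAGA factor, was lower at 11.6% of summits against 17.7% of flanks (exact test, adjusted p = 0.0113). The other 8 motifs had no call. They were TATCGATA, bound by DREF, at 0.140% of summits and 0.281% of flanks, GTGGGAA, bound by Su(H), at 1.12% and 1.68%, CAGGTA, bound by Zelda, at 2.66% and 2.95%, and AACCGGTT, bound by Grainyhead, at 0.281% and 0.140%. Of the E boxes bound by bHLH factors, CAGCTG was at 2.66% and 4.91%, with CATATG at 3.79% and 3.65%, and CACCTG was at 2.52% and 3.93%, with CACGTG at 0.561% and 0.701%. Over all 2883 summits of the list, AAATCAC was in 4.13%, GATAAG in 7.84%, TAATTA in 8.53%, GAGAG in 11.7%, CATAAA in 13.1% and TACAAA in 12.7% of the windows. With the flank 1000 bp away instead, only GATAAG of the 14 was called, and the motif calls other than AAATCA and GATAAG were lost in at least 1 alternative. A match is a run of letters and says nothing of whether the factor was bound.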

How the data were processed

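Peak lists of 2 biological replicates of sens-2-eGFP embryos on dm6 were used, with replicate numbers from the labels. Per the text files the authors deposited, the conservative thresholded list drew on alignments of both replicates, while a ranked list and a thresholded list came from each replicate by itself. Aligner and peak caller: not given in the sources used here. The authors deposited a signal value per peak, whose definition is not given, a whole-number score per peak and the offset of the summit in bp, of which the score was not analysed.

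From the 2899 peaks of the conservative list, 16 on unplaced scaffolds were left out. Summits were placed on the Ensembl release 115 annotation (BDGP6.54), every annotated transcript included, and sequence was read from the Release 6 genome. Host genes were looked up among protein-coding genes, and the longest named the member. Peaks of 2 lists matched at an overlap of 1 bp or more. Summits were compared between classes by two-sided Fisher's exact tests with Benjamini-Hochberg adjustment over 12 comparisons, and summits with flanks by two-sided exact McNemar tests on windows of the summit with 50 bp on each side, adjusted over 14 further motifs or all hexamers, at a threshold of 0.05. Densities divide counts by the bases that meet the same position rule, and were compared by exact binomial tests chosen after the values were seen. The work used Python 3.11.15, numpy 2.4.6, scipy 1.17.1 and matplotlib 3.10.9. The McNemar and Fisher tests of AAATCA were also run on random intron positions, without and with planted AAATCA. The outcome is not given here. Positions drawn at random do not test the part of base composition in the difference between summits and flanks. The hexamer, density and list-overlap steps were not tried on simulated data.

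Named genes are the hosts of the 15 strongest members, the 5 hosts with most members, up to 3 hosts in each of 8 lists, sens-2 and the members at the limits of the rule. NetA's map, Mad, grh, abd-A, Abd-B, drk, InR, dpp, dlp, ptc and ph-p were added after their values were seen. The members and lists were chosen with earlier results of these data known. The labels call the replicates biological and say no more of their origin than the strain and stage. Sequence windows of some further strong members are not reported here.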

Additional observations from a re-analysis of the deposited data

How the results depend on the processing

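Of 253 values recomputed under other settings, 193 kept the direction and the side of the test's threshold, or, where there was no test, stayed within 1.5 times the count or within the interval of the share. The size of a difference could still change, since the uncalled share in both replicate lists was 6.36 points above longer genes and 1.41 points at an overlap of at least 50% of both peaks, and that with AAATCA was 5.36 points and 1.01 points with 100 bp on each side. Without replicate 1 and without replicate 2 (each other list alone), the members numbered 405 and 494. The signal difference between members and summits near starts ran from -10.7 to -2.34 points in these lists, and that from intergenic summits from -0.380 to 3.16 points. The summit-against-flank difference in AAATCA between members and longer genes ran from -3.43 to 11.4 points, that from starts from -0.401 to 3.47 and that from intergenic summits from -0.401 to 9.30, none of them called. Peaks with a signal at or above the median gave 360 members, a host limit of 25 kb gave 453, and the share of all summits was 28.7% with more than 250 bp from starts, 17.9% with more than 1000 bp, 15.7% with a limit of 25 kb and 32.2% with 100 kb. First-intron shares were 59.7% on the longest transcript and 76.7% on any transcript. With 1 summit per host, the strongest by construction, the share in both replicate lists differed by -6.56 points from longer genes and by 2.21 points from starts, and the share above the median by -8.94 and 3.91 points, with no call. The difference from intergenic summits in both lists lost its call at a limit of 25 kb (8.22 points), at an overlap of at least 50% of both peaks (7.25) and without weaker overlapping peaks (8.36), and that in signal at more than 1000 bp from starts (8.84), at 25 kb (8.65) and without weaker overlapping peaks (7.94), where fewer summits were tested in all but the overlap setting. At or above the median signal, AAATCA differed by 9.53 points from intergenic summits and passed (exact test, adjusted p = 0.0484). The adjustment in that setting covered fewer comparisons than in the main tests, since signal above the median was not compared there. Whether the call holds over the full number of comparisons was not tested. The summit-against-flank difference from longer genes was 0.557 points at or above the median and 0.458 with 100 bp on each side. Called motifs numbered 2 higher and 0 lower with 1 summit per host, 3 and 0 with 100 bp on each side, 1 and 0 with the flank 1000 bp away, and 3 and 2 with the flank on the other side. Called hexamers numbered 70 higher and 56 lower with 1 summit per host, 32 and 16 with 25 bp on each side, 177 higher with 100 bp on each side, and 40 and 28 with the flank 1000 bp away. The cause of these changes was not tested. Leaving out transposable elements and pseudogenes from the annotation, the sens-2 members or the weaker of overlapping peaks, and every density setting, was chosen after seeing the data. The 3 density ratios kept their direction and call in each alternative tried for them. These were the other peak lists, signal at or above the median, and leaving out the sens-2 members or the weaker of overlapping peaks. With 1 summit per host only the X ratio was recomputed. No density ratio was recomputed at other distances from starts, host limits or annotations. No paired comparison of samples between groups was possible because there was only 1 group. Read depth is unknown, the 2 libraries give no estimate of the spread between embryo collections beyond 1 pair, and a summit that falls just below the authors' threshold in one place and above it in another cannot be seen in these lists.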
